A study of Mus musculus with 6 samples.

Results

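The genes that encode the proteins of the cytosolic ribosome were examined in neurons of the preBötzinger complex (preBötC), the brainstem site from which the rhythm of inspiration emerges. Members were taken by name, as every row called Rpl or Rps with a number and its usual suffix letters, together with Rplp0 to Rplp2 and Rpsa, and names ending in -ps or beginning with Gm were left out. The rule returned 88 genes of the 49568 rows in each file. Of these, 77 are the usual ribosomal protein genes, 46 of the large and 31 of the small subunit, 6 are protein-coding -like genes (Rpl3l, Rpl7l1, Rpl10l, Rpl22l1, Rpl39l and Rps27l), and 5 are annotated as pseudogenes (Rpl6l, Rps3a2, Rps3a3, Rps4l and Rps12l1). The members lie on 19 chromosomes of the mouse genome (GRCm38, also called mm10), 4 of them on chromosome X.

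The study compared pools of 15 neurons drawn into micropipettes from slices of neonatal Dbx1CreERT2; Rosa26tdTomato mice of both sexes at postnatal day 2. All 6 mice carried the tamoxifen-inducible Cre driver and the tdTomato reporter, and their dams had received tamoxifen during gestation. The 3 Dbx1 samples held neurons with tdTomato fluorescence, which marks cells whose progenitors expressed Dbx1 when Cre was active, and the 3 non-Dbx1 samples held neuronal somata without fluorescence, a group that can include any neuron that did not recombine. Each sample came from a different animal. Levels are given in RPKM (reads per kilobase of exon, scaled to the number of reads in the sample), in the order of replicates 1 to 3.

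A ribosome joins a small subunit, which binds mRNA and decodes it, to a large subunit, which forms the peptide bond and releases the growing chain through a tunnel. Each subunit holds ribosomal RNA and a set of proteins that are needed in nearly equal numbers, most of them encoded by a single spliced gene. Mammalian ribosomal protein mRNAs are abundant and short, and over evolution they have been copied back into the genome many times as intronless processed pseudogenes, so that much of their coding sequence is present at several places.

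Reads assigned to genes numbered 6464675 to 9432958 per sample, and 3 reads on a kilobase of exon amounted to 0.318 to 0.464 RPKM. These floors cover counting error only, since reads of amplified cDNA are not independent molecules. The 6 neuron markers (Tubb3, Snap25, Syn1, Eno2, Rbfox3 and Stmn2) were above 0 in each of the 6 samples, with a summed level of 1326 to 2202 RPKM, whereas Dbx1 itself was listed at 0 in all 6. Libraries differed in markers of other cells, non-Dbx1 replicate 1 most of all. Its 5 red cell markers summed to 14058 RPKM, against 90.3 to 507 over the Dbx1 samples and 733 and 1198 for non-Dbx1 replicates 3 and 2, and its 5 oligodendrocyte lineage markers summed to 326 RPKM, against 4.38 to 24.0 elsewhere. Non-Dbx1 replicate 2 had 65.4 RPKM over 3 endothelial markers, 63.7 of it from Cldn5, against 0.0104 to 2.96 elsewhere. The 5 astrocyte markers summed to 37.0, 24.4 and 39.5 RPKM in the non-Dbx1 samples and to 21.4 to 26.6 RPKM among the Dbx1 samples, and the 5 microglia markers to 0.202 to 13.3 RPKM over all 6. The part of this material in the results below was not tested. Among the members described in full because their groups do not overlap, differences that moved by over 1.5 times without a sample are given with that value.

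Nearly all usual ribosomal protein genes were detected, but at levels far apart. Of the 88 members, 84 were above 0 in at least 1 sample and 80 in every sample. Among the 77 usual genes, 76 were above 0 in every sample, the exception being Rpl24, a late-joining protein of the large subunit, which was listed at 0 in non-Dbx1 replicate 1. Rpl10l, Rpl39l, Rps12l1 and Rps3a2 were listed at 0 in all 6 samples. The mean level over 6 samples had a median of 4.88 RPKM among the usual genes, with 6 genes under 1 RPKM, 46 between 1 and 10, 11 between 10 and 20, and 14 at 20 or above. The 3 highest genes held 41.5% of the summed mean level of the usual genes and the 10 highest held 70.3%, and the highest mean was 992 times the lowest. RPKM rests on the exon length used by the authors, and for 71 of the 84 detected members this length was above the merged exons of the current annotation (median ratio 1.61), so levels set between genes carry that uncertainty. In addition, 39 members share exon bases with another gene, and reads were counted without strand.

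**Figure D1:**
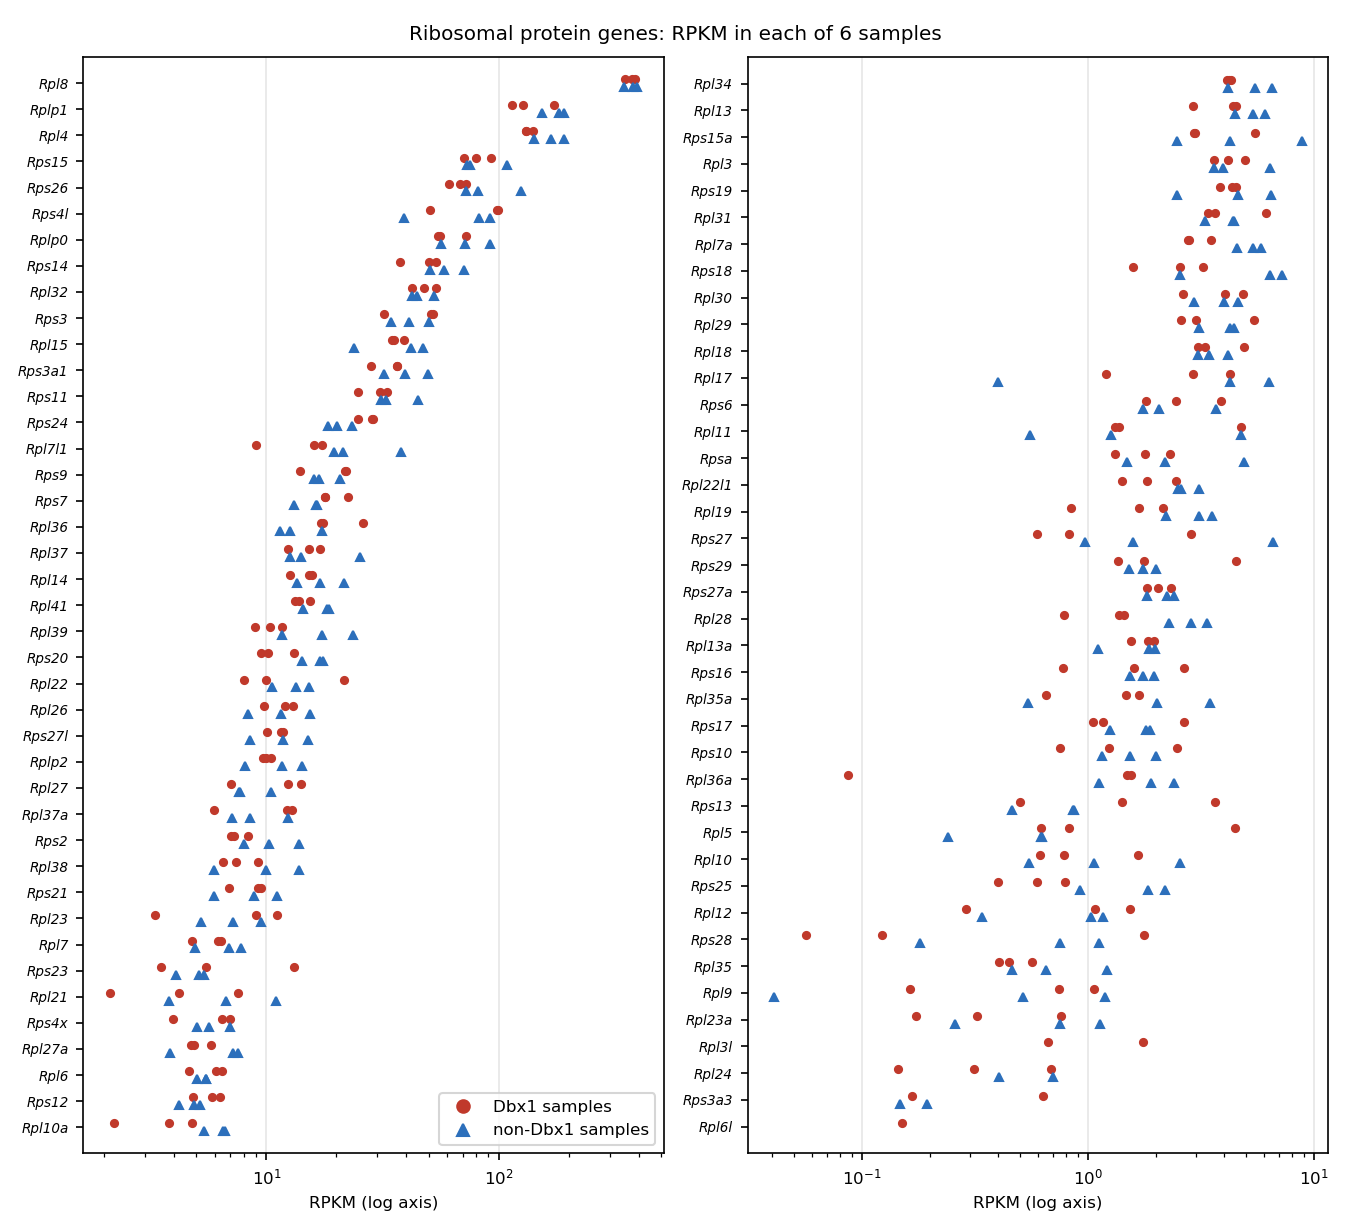
RPKM on a log axis for 81 members above 0 in at least 1 sample, ordered by mean level, with circles for the 3 Dbx1 samples and triangles for the 3 non-Dbx1 samples; values of 0 cannot be drawn. Rpl8 heads the order with 6 values between 347 and 394 RPKM, and the points spread more widely among genes under 10 RPKM.

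Rpl8, a large subunit protein beside the peptidyl transferase centre (chr15:76904078-76906314, plus strand), had the highest level. It measured 372, 386 and 348 RPKM in Dbx1 samples against 379, 394 and 347 RPKM in non-Dbx1 samples. The groups overlapped, and the highest sample was 1.14 times the lowest. Rplp1, an acidic protein of the stalk that recruits elongation factors (chr9:61913284-61914542, minus strand), measured 114, 128 and 173 RPKM in Dbx1 samples against 182, 191 and 153 RPKM in non-Dbx1 samples. Rpl4, which reaches into the exit tunnel (chr9:64173375-64178666, plus strand), measured 140, 131 and 131 RPKM in Dbx1 samples against 192, 167 and 141 RPKM in non-Dbx1 samples. The Rplp1 groups overlapped, whereas the lowest non-Dbx1 value of Rpl4 lay just above the highest Dbx1 value.

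Rps15, a small subunit protein of the head, had a mean of 83.0 RPKM. Rps26, which contacts mRNA at the exit channel, measured 72.0, 60.9 and 67.8 RPKM in Dbx1 samples against 124, 81.3 and 72.1 RPKM in non-Dbx1 samples. The Rps26 groups were separated by a margin smaller than the spread within either group, and its highest value was that of non-Dbx1 replicate 1.

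The deposited levels were far apart among genes whose proteins sit together in the ribosome. In the stalk of the large subunit, Rplp0, the anchor, had a mean of 67.1 RPKM, Rplp1 157 RPKM, Rplp2, the partner of Rplp1 in a dimer, 10.7 RPKM, and Rpl12, at the stalk base, 0.904 RPKM. No 50-base stretch of the Rpl12 coding sequence was unique, and its pseudogene loci, described below, summed to 11.8 RPKM, against 0.918 RPKM for the locus of Rplp2. Rplp0 measured 71.9, 54.7 and 56.1 RPKM in Dbx1 samples against 91.8, 71.7 and 56.6 RPKM in non-Dbx1 samples, so that the groups overlapped. The 9 genes of the tunnel wall and exit rim ran from Rpl23a at 0.566 RPKM to Rpl4 at 150 RPKM (median 4.22). The 14 genes of the small subunit head had a median of 3.03 RPKM, with Rps28 lowest at 0.667 RPKM.

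Rpl5 and Rpl11, which join the ribosome as 1 particle with the smallest rRNA of the large subunit and bind Mdm2 when free, had means of 1.23 and 2.34 RPKM. Rpl5 measured 0.824, 0.618 and 4.46 RPKM in Dbx1 samples against 0.240, 0.625 and 0.622 RPKM in non-Dbx1 samples. Its highest value stood alone in Dbx1 replicate 3, and the other 5 samples overlapped. Rpl11 measured 1.32, 1.37 and 4.76 RPKM in Dbx1 samples against 0.552, 4.77 and 1.26 RPKM in non-Dbx1 samples, with a high value in each group.

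Rps27a, made as a fusion with ubiquitin, had a mean of 2.11 RPKM and varied little between samples (1.82 to 2.41 RPKM). Rps6, the small subunit protein phosphorylated by S6 kinase, had a mean of 2.60 RPKM, and Rpsa, also known as the laminin receptor precursor, 2.33 RPKM. Rps19, the gene most often mutated in Diamond-Blackfan anaemia, had a mean of 4.37 RPKM and Rpl38, whose loss alters the mouse skeleton, 8.81 RPKM. None of these 5 genes had separate Dbx1 and non-Dbx1 values.

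The lowest usual genes were Rpl12, Rps28, Rpl35 (mean 0.624 RPKM), Rpl9 (0.618 RPKM), Rpl23a and Rpl24 (0.374 RPKM). Rpl35 and Rpl23a sit at the tunnel exit, where factors dock on the nascent chain. Rps28 ranged from 0.0567 to 1.77 RPKM and Rpl9 from 0.0408 to 1.18 RPKM, a wide spread for both. Rps28, Rpl23a and Rpl24 had 2 or fewer reads in at least 1 sample, and their levels are poorly resolved at this depth. Rpl12, with 18 to 83 reads per sample, and Rpl9, with 3 to 127, had more reads over long exon lengths.

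The low levels fell mostly among genes whose coding sequence is repeated elsewhere. For each coding member, the coding sequence was divided into all overlapping words of 50 bases, and the share of words found in no other annotated gene on either strand was computed. This share had a median of 8.70% among the usual genes and ran from 0 to 100%. The 42 genes with under 10% unique words had a median level of 2.47 RPKM, and 1 of them, Rpl15 at 37.1 RPKM, reached 20 RPKM. All 6 usual genes with a mean under 1 RPKM were among these 42, and in 5 of the 6 no word was unique. The 18 genes with 10 to 25% had a median of 8.35 RPKM, the 8 genes with 25 to 50% a median of 60.3 RPKM, the 5 genes with 50 to 75% a median of 18.5 RPKM, and the 4 genes above 75% a median of 123 RPKM. Rps3 (43.5 RPKM), Rpl4 and Rpl8 were in the last set.

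Across the 81 coding members above 0, the mean level on the log2(RPKM + 1) scale and the unique share had a Pearson r of 0.614 and a Spearman rho of 0.604. The points are genes from the same 6 libraries, not independent replicates, and share depth and base composition. With words of 35 bases rho was 0.564, and with levels recomputed over merged exon length it was 0.559 in the 71 members with such a value. A word that spans an exon junction is absent from the genome at the gene itself in unbroken form. A median of 36.8% of the words of the usual genes spanned a coding junction (range 17.4 to 100%), and in 33 usual genes no unique word lay inside a single exon.

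**Figure D2:**
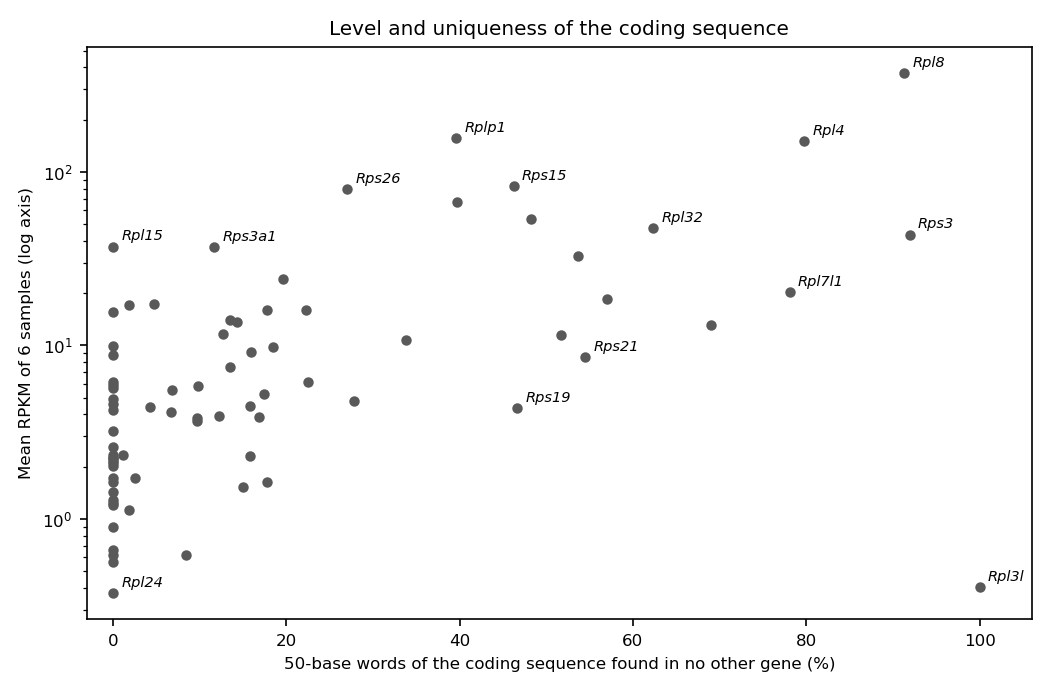
Mean RPKM of the 6 samples on a log axis against the percentage of 50-base words of the coding sequence that occur in no other gene, with 1 point a coding member. Genes with under 10% unique words centre on 2.47 RPKM and the usual genes drawn above 75% lie between 43.5 and 371 RPKM.

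The processed pseudogenes carried much of the signal that resembles the members. Genes of pseudogene biotype that share at least 20 words of 50 bases with a coding member numbered 807, of which 655 were named in the files, 501 were above 0 in at least 1 sample and 49 had a mean of at least 10 RPKM. Such a locus existed for 75 of the 77 usual genes. The summed level of the loci was above that of the member for 45 genes, and a single locus was above the member for 39. Summed over all loci, the level was 2586, 2561 and 2190 RPKM in Dbx1 samples against 3037, 2705 and 2400 RPKM in non-Dbx1 samples. The members themselves summed to 1698, 1715 and 1565 RPKM in Dbx1 samples against 1963, 1875 and 1649 RPKM in non-Dbx1 samples. Both sums overlapped between the groups, and both were highest in non-Dbx1 replicate 1.

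The sequences below are shown because they mark how closely a stretch of a member can resemble the pseudogene that outranked it. The pairs Rpl23 with Gm9794 and Rpl14 with Rpl14-ps1 were chosen after their values were seen. Each run is 50 bases of coding sequence, 5′ to 3′ on the strand of the gene, in GRCm38, and capitals mark the bases that differ between member and locus.
Rpl23, chr11:97778328-97778377, minus strand: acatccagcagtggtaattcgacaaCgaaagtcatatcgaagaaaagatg
Gm9794, chr6:66875467-66875516, minus strand: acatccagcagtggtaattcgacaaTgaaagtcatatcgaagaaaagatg
Rpl14, chr9:120574135-120574184, plus strand: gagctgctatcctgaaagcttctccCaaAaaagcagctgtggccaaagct
Rpl14-ps1, chr7:45325359-45325408, plus strand: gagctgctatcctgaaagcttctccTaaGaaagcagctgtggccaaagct

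Rpl23 and Gm9794 differ at 1 of 420 coding bases, and 13.5% of the words of Rpl23 were unique. In Rpl14, 22.3% of the words were unique. Rpl23 had a mean of 7.56 RPKM, whereas Gm9794 measured 181, 198 and 90.04 RPKM in Dbx1 samples against 146, 178 and 158 RPKM in non-Dbx1 samples. Both genes were lowest in Dbx1 replicate 3. Rpl14 had a mean of 15.96 RPKM and Rpl14-ps1 166 RPKM.

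Rps29, a zinc-binding protein of the small subunit head, is identical to Gm14303 over all 168 coding bases. Rps29 had a mean of 2.15 RPKM, and Gm14303 measured 131, 154 and 124 RPKM in Dbx1 samples against 143, 157 and 128 RPKM in non-Dbx1 samples, with the groups overlapping. Rps13 had a mean of 1.29 RPKM against 84.0 RPKM summed over its loci, Rps28 0.667 against 75.6 RPKM, and Rpl24 0.374 against 20.5 RPKM. Reads of such near-identical copies cannot be placed with certainty, and the levels of these members are uncertain to that extent. Rpl4 differed from these in that 79.7% of its words were unique, and it had 150 RPKM against 119 RPKM at Gm5835, its only locus. Rps29, Rps13 and Rpl4 were likewise chosen for this account after their values were seen.

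Exon length entered these ratios. The median exon length behind the values was 3390 bases for the members and 483 bases for the loci. In reads recovered from the RPKM steps (whole to within 0.01 read for 460 of the 501 loci above 0), 65 usual genes could be set against their loci, and 22 of them had fewer reads than their loci. These 65 genes held 13831 to 20361 reads per sample and their loci 6797 to 10408. Rps29 had 85 reads over the 6 samples and its loci 1125, Rpl23 1161 and 3179, Rpl14 2604 and 5106, and Rpl4 20947 and 7099. Loci without whole reads were left out, among them Gm10275 of Rpl12 and Gm10269 of Rpl35, each the highest locus of its member. The reads of the loci and the 22 genes are therefore low estimates. The counts by RPKM took all 77 usual genes and all loci, so the count by reads cannot be set directly against them. With members and loci added together, the median level of the usual genes was 32.6 RPKM, and rho with the unique share was 0.326.

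**Figure D3:**
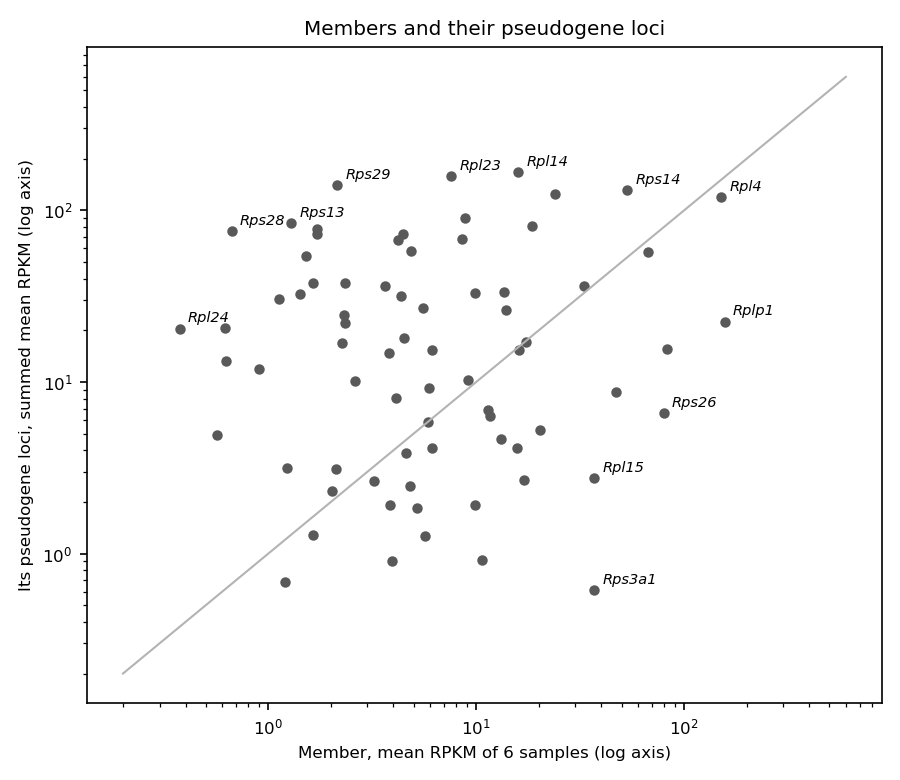
Summed mean RPKM of the pseudogene loci against the mean RPKM of the member they resemble, both on log axes, for members with loci above 0; the line marks equal levels. Points above the line are members whose loci exceed them, Rps28 (0.667 against 75.6 RPKM) and Rps29 (2.15 against 140 RPKM) among the farthest.

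The paralogues differed in how they compared with their partners. Rps4l, annotated as a transcribed processed pseudogene (chr6:148354656-148355598, plus strand), measured 99.1, 97.8 and 50.8 RPKM in Dbx1 samples against 39.2, 82.2 and 91.8 RPKM in non-Dbx1 samples. Its X-linked partner Rps4x had a mean of 5.84 RPKM. Rps4l held a median of 93.2% of the sum of the pair (range 87.4 to 94.2%), or 91.1% by recovered reads. The low samples of Rps4l were Dbx1 replicate 3 and non-Dbx1 replicate 1, and the groups overlapped.

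Rps27l, a homologue of Rps27 known as a p53 target, held a median of 90.3% of its pair (85.3% by reads). Its own level was even (8.46 to 15.1 RPKM), whereas Rps27 measured 0.594, 0.823 and 2.84 RPKM in Dbx1 samples against 6.57, 1.59 and 0.970 RPKM in non-Dbx1 samples. The share was lowest, 56.3%, in non-Dbx1 replicate 1, where Rps27 was highest. Rpl7l1 held 73.5% of its pair with Rpl7 (range 65.3 to 88.5%). Rpl22l1 held 17.3% of its pair with Rpl22 (range 6.13 to 22.7%), or 24.5% by reads. The lower gene of each of these pairs had the smaller share of unique words: 9.9% in Rps4x, 0% in Rps27, 22.5% in Rpl7 and 15.8% in Rpl22l1. Their partners had 85.1% (whole transcript), 51.7, 78.1 and 69.0%. Loci summed to 24.65 RPKM for Rpl22l1 and 4.64 RPKM for Rpl22, so the order of this pair depends on the loci. For Rpl7, Rps27 and Rps4x they summed to 15.4, 0 and 5.83 RPKM. The loci of Rpl7l1 and Rps27l summed to 5.24 and 6.82 RPKM, and both genes stayed above their partners with loci added. For Rps4l, which is not a coding member, loci were not sought. The part of shared sequence in these shares was not tested.

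Rpl3l, which replaces Rpl3 in striated muscle, was above 0 in 2 samples, with 10 reads in Dbx1 replicate 1 and 25 reads in Dbx1 replicate 2 (0.665 and 1.75 RPKM), and was listed at 0 in the other 4, while Rpl3 held 154 to 330 reads per sample. Rpl10l and Rpl39l, both known from testis, were listed at 0 in every sample. Rpl6l had 1 read in 1 sample and Rps3a3 between 0 and 4 reads per sample. The 4 X-linked members were Rpl39, which lines the exit tunnel (mean 13.9 RPKM), Rps4x, Rpl36a (1.42 RPKM) and Rpl10, a late-joining protein near the site where the tRNAs bind (1.21 RPKM). Rpl36a had 2 reads in Dbx1 replicate 3, against 24 to 75 reads in the other samples.

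The pattern of levels was much the same in the 6 samples. Over the 82 members tested, the log2(RPKM + 1) levels of 2 samples had a Pearson r of 0.941 to 0.975 in the 6 pairs within a group and 0.930 to 0.974 in the 9 pairs between groups, a description across genes. The pooled within-group SD of log2(RPKM + 1) had a median of 0.32 over the members. Over the 40 members in the middle of their level range it was again 0.32, against 0.62 over the 6833 other tested genes of that level range, a difference given without a test. Among the steadiest members were Rpl8 (SD 0.09) and Rps27a (0.13), and the least steady were Rpl17, which lines the tunnel (SD 1.002), Rps27 (0.87) and Rpl11 (0.87). Rpl17 measured 2.92, 1.20 and 4.27 RPKM in Dbx1 samples against 0.399, 6.33 and 4.24 RPKM in non-Dbx1 samples, the lowest of these resting on 2 reads.

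Dbx1 and non-Dbx1 samples were then compared to ask whether the ribosomal protein genes differ between Dbx1-derived neurons, which include those that generate the respiratory rhythm, and their neighbours. No member differed by limma at a false discovery rate (FDR) below 0.1 over all genes tested. The fit took log2(RPKM + 1) in all 17614 genes above 0 in at least 3 samples, of which 82 were members, and the difference (L2FC, Dbx1 minus non-Dbx1) is on that scale, which understates changes of low genes. At FDR 0.1 limma called 0 of 82 members against 0.00568% of all genes (1 gene). At an unadjusted limma p under 0.05, 0 members were higher in the Dbx1 samples against 2.73% of all genes, and 0 were higher in the non-Dbx1 samples against 2.48%. The lowest member p by limma was 0.051, for Rpl7l1 (FDR 0.912). In these pools, fewer neurons of a type and less RNA per neuron cannot be told apart.

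The differences leaned towards the non-Dbx1 samples without passing a test. L2FC was below 0 for 55 of 82 members (67.1%, against 49.2% of all tested genes) and above 0 for 27. The median was -0.10, against 0.01 over all genes, and the single L2FC values ran from -0.84 for Rpl7l1 to 0.77 for Rpl5, with a median SE of 0.42. The Rpl5 value leans on its single high sample, Dbx1 replicate 3 (4.46 RPKM, against 0.240 to 0.824 RPKM in the others). The large subunit genes had a median of -0.14 (46 usual genes) and the small subunit genes -0.08 (31 usual genes). The 4 X-linked members all had an L2FC below 0 (median -0.36). The members made up 0.625, 0.638 and 0.655% of the summed RPKM of all genes in Dbx1 samples against 0.710, 0.689 and 0.639% in non-Dbx1 samples, so that the groups overlapped. Non-Dbx1 replicate 1 had the highest value of the 6 samples for 27 of 82 members (32.9%, against 21.5% of all tested genes), and Dbx1 replicate 3 had the lowest for 27.

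**Figure D4:**
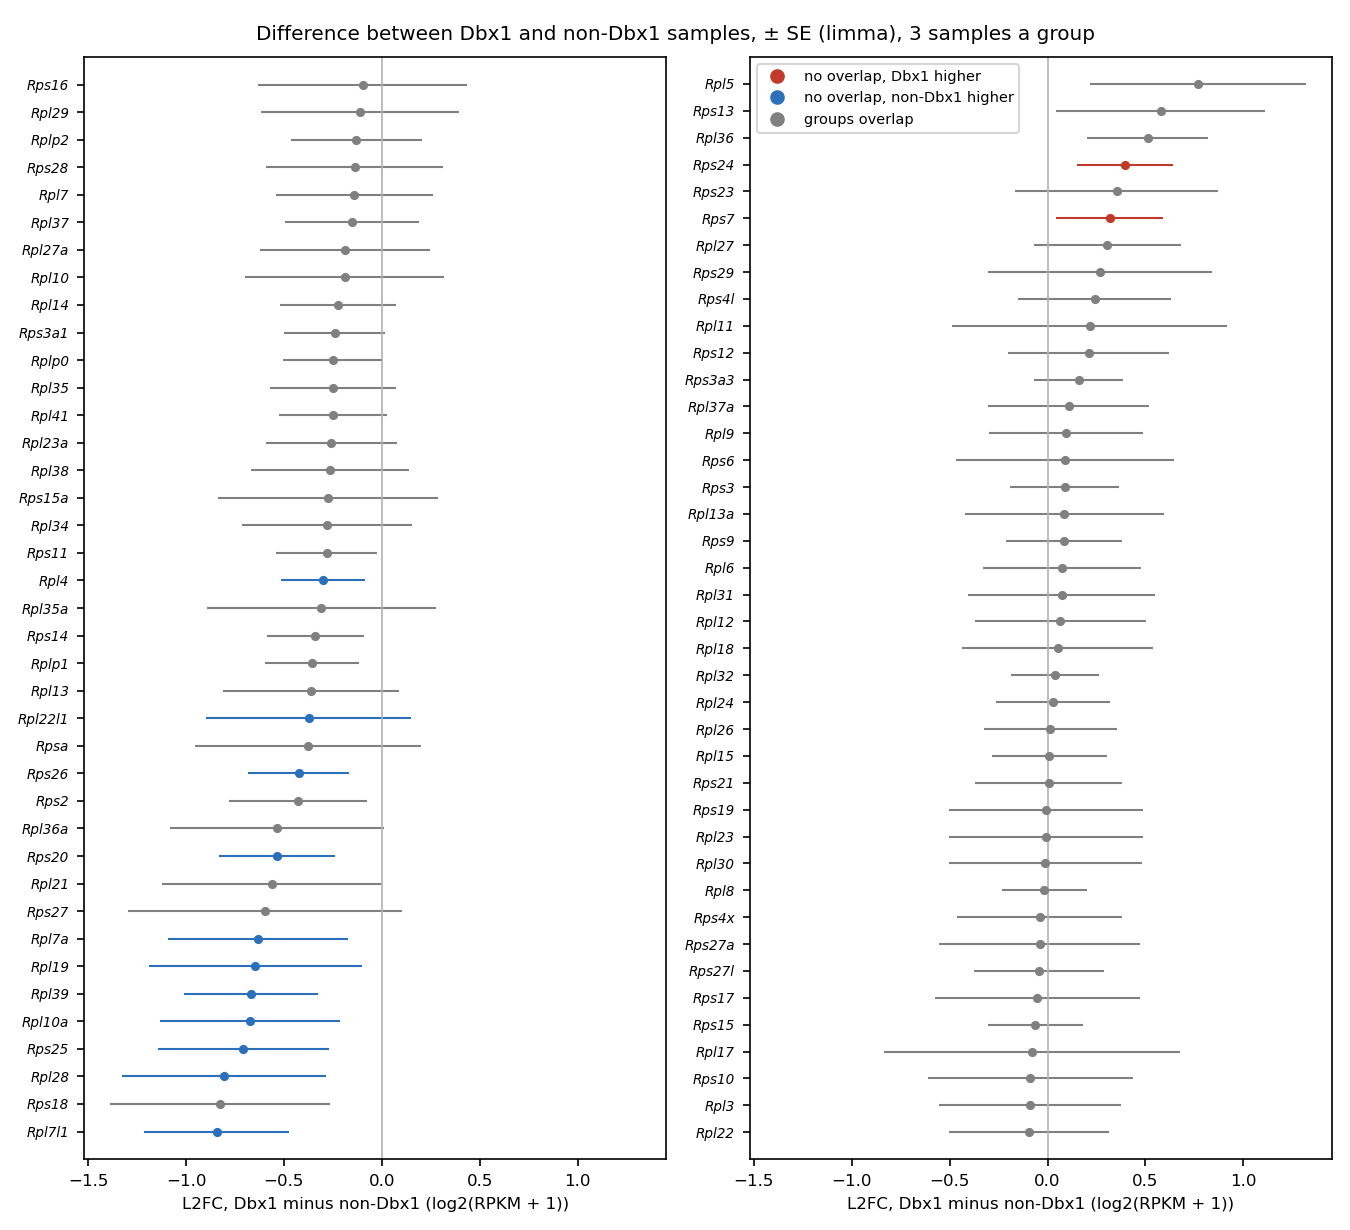
L2FC of 79 tested members (Dbx1 minus non-Dbx1, on log2(RPKM + 1)), with bars of ± 1 SE from limma and 3 samples a group; red and blue points mark members whose groups do not overlap. The points run from -0.84 to 0.77 and 52 of them lie below 0.

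Groups that did not overlap were counted next, and for a single gene the smallest exact two-sided permutation p with 3 samples against 3 is 0.10. All 3 Dbx1 values lay above all 3 non-Dbx1 values for 2 members (2.44%, against 5.35% of all tested genes). The reverse held for 11 members (13.4%, against 5.24%). In 8 of these 11 the highest sample was non-Dbx1 replicate 1. Without that sample the counts were 2 and 15 members, against 10.2% of all genes in each direction. Leaving out a sample cannot make separate groups overlap, so these counts can grow but not shrink.

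Both members higher in the Dbx1 samples belong to the small subunit, as do 34 of the 82 tested members. Rps24 measured 28.6, 28.8 and 24.8 RPKM in Dbx1 samples against 18.4, 23.4 and 20.1 RPKM in non-Dbx1 samples (L2FC 0.40 ± 0.25 SE, limma FDR 0.937). Rps7 measured 17.9, 22.4 and 17.8 RPKM in Dbx1 samples against 13.2, 16.3 and 16.6 RPKM in non-Dbx1 samples (L2FC 0.32 ± 0.27 SE, limma FDR 0.951). Both proteins act in maturation of the small subunit rRNA and both genes are mutated in Diamond-Blackfan anaemia. For both genes the gap between the groups was smaller than the range within a group, and with its loci Rps24 had an L2FC of 0.23.

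Among the 11 members higher in the non-Dbx1 samples, 8 carry large subunit names, 6 of them usual genes and 2 of them -like genes. Such names are carried by 48 of the 82 tested members. Rpl7l1, a relative of Rpl7, measured 17.3, 16 and 8.99 RPKM in Dbx1 samples against 38.1, 19.6 and 21.3 RPKM in non-Dbx1 samples (L2FC -0.84 ± 0.37 SE). The difference was -0.55 without non-Dbx1 replicate 1, its highest sample. Rpl28, which has no counterpart in budding yeast, measured 1.37, 1.44 and 0.781 RPKM in Dbx1 samples against 3.36, 2.29 and 2.84 RPKM in non-Dbx1 samples (L2FC -0.81 ± 0.52 SE). The gap between its groups was wider than the range of its Dbx1 values, but the gene shares exon bases with Ube2s and 0% of its words were unique. Summed with their loci, Rpl7l1 and Rpl28 each had an L2FC of -0.66.

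Rps25, a head protein needed by several viral internal ribosome entry sites, measured 0.401, 0.593 and 0.795 RPKM in Dbx1 samples against 0.921, 2.19 and 1.85 RPKM in non-Dbx1 samples (L2FC -0.71 ± 0.44 SE). Rpl10a, which forms the stalk on the far side of the large subunit, measured 3.80, 2.21 and 4.81 RPKM in Dbx1 samples against 6.47, 6.63 and 5.37 RPKM in non-Dbx1 samples (L2FC -0.67 ± 0.46 SE). Without Dbx1 replicate 2 the L2FC of Rpl10a was -0.43, and summed with its 3 pseudogene loci it was -0.02. Rps25 summed with its loci had an L2FC of -0.42.

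Rpl39, a short protein of the tunnel wall, measured 11.6, 10.4 and 8.92 RPKM in Dbx1 samples against 23.6, 17.3 and 11.7 RPKM in non-Dbx1 samples (L2FC -0.67 ± 0.34 SE). The margin between the groups was under 0.1 RPKM, and without non-Dbx1 replicate 1 the L2FC was -0.44. Rpl19, which bridges to the small subunit, measured 1.68, 0.837 and 2.15 RPKM in Dbx1 samples against 3.53, 2.21 and 3.09 RPKM in non-Dbx1 samples (L2FC -0.65 ± 0.54 SE, and -0.42 without Dbx1 replicate 2). Rpl7a measured 3.49, 2.80 and 2.78 RPKM in Dbx1 samples against 5.79, 4.58 and 5.36 RPKM in non-Dbx1 samples (L2FC -0.63 ± 0.46 SE), and Rps20, of the head, 9.46, 13.2 and 10.2 RPKM against 17.4, 14.3 and 16.9 RPKM (L2FC -0.54 ± 0.30 SE). The Rpl7a groups were separated by more than the range within the Dbx1 group, and those of Rps20 by less. Summed with their loci, the L2FC was -0.78 for Rpl39, -0.45 for Rpl19, -0.42 for Rpl7a and -0.21 for Rps20. The limma FDR of these 8 genes was 0.912 or above. Rpl4, Rps26 and Rpl22l1 completed the 11.

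**Figure D5:**
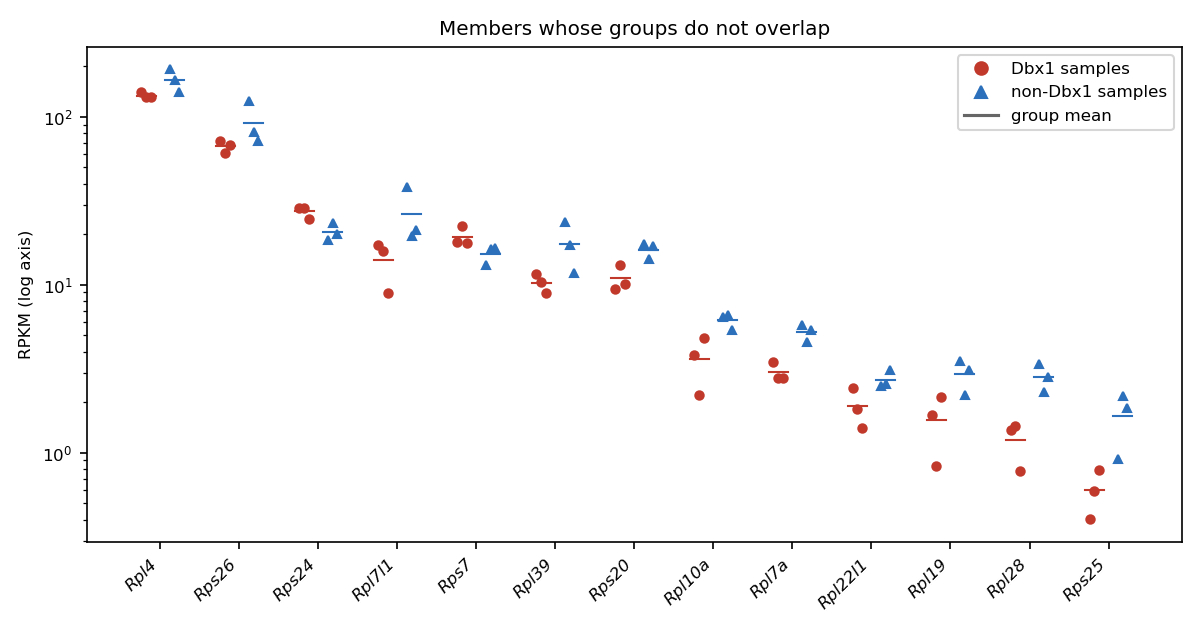
RPKM on a log axis for the 13 members whose groups do not overlap, with circles for the Dbx1 samples, triangles for the non-Dbx1 samples and a line at each group mean. Rps24 and Rps7 are higher in the Dbx1 samples, and the other 11, Rpl7l1 and Rpl4 among them, are higher in the non-Dbx1 samples.

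Genes of the same machinery gave no call at FDR 0.1 by limma either. The 19 members mutated in Diamond-Blackfan anaemia had a median L2FC of 0.01, with 11 above 0 and 8 below. Of the ribosome genes that the name rule leaves out, Rack1, a signalling scaffold on the small subunit head, had a mean of 28.8 RPKM, Fau, which encodes a small subunit protein fused to a ubiquitin-like domain, 10.4 RPKM, and Rpl36al 9.39 RPKM. At an unadjusted limma p under 0.05, none of these 3 passed.

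The 78 proteins of the mitochondrial ribosome had a median level of 18.1 RPKM, against 4.88 RPKM for the 77 usual members alone. Those members summed with their loci had a median of 32.6 RPKM, so that the order depends on the loci. The sum is an unlike measure, since no loci were sought for the mitochondrial genes. The loci also have shorter exon lengths (median 483 bases, against 3390 for the members). Of the 78, 1 passed p under 0.05 by limma in each direction. Of the 56 initiation factors (median 13.7 RPKM), 3 were higher in the Dbx1 samples at that threshold and 0 in the non-Dbx1 samples. The 12 elongation and release factors had a median of 17.4 RPKM, with Eef2, the translocase, highest at 258 RPKM, and 0 passed in either direction. The 38 ribosome assembly factors found in the files (of 40) had a median of 9.04 RPKM, and 1 was higher in the Dbx1 and 2 in the non-Dbx1 samples. Among 18 regulators of ribosomal protein mRNA translation (median 6.25 RPKM), 1 was higher in the Dbx1 samples. All these counts by limma stand beside 2.73% and 2.48% of all tested genes.

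Ribosomal protein mRNAs are known for a terminal oligopyrimidine start, a cytosine at the first base followed by a run of pyrimidines, through which TOR signalling controls their translation. At annotated RefSeq starts in GRCm38.p6, a C followed by at least 4 bases that are each C or T, on the strand of the gene, was present in 13 of 67 windows of 57 usual genes (19.4%), against 2.51% of all 32851 promoters. Within 3 bases of the start the shares were 35.8% and 11.5%. The 8 windows of the -like members held 0 at the start and 2 (25%) within 3 bases. The runs below are 30 bases, 15 before the start and 15 from it, with the pyrimidine run in capitals. They are from 3 named members among the 13 windows that hold the motif at the start, which most windows of the usual genes lack.
Rps6, chr4:86857353-86857382, minus strand: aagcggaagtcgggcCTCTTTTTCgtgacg
Rpl38, chr11:114668565-114668594, plus strand: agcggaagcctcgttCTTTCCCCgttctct
Rpl28, chr7:4792950-4792979, plus strand: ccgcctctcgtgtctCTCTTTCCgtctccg
The match describes the letters at the annotated start and nothing about translation in these neurons, which was not measured.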

How the data were processed

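Each of the 6 libraries was made from full-length cDNA of 15 pooled neurons and sequenced single-end. Per the study's methods and the submitters' processing notes, the authors aligned reads with TopHat2 to mm10, processed them with SAMtools, counted uniquely mapped reads per gene with HTSeq without strand, and scaled by exon length and the number of reads. The deposited values are RPKM per gene name, 1 file a sample. The tool versions are not given in the sources used here.

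From these values, log2(RPKM + 1) was compared between 3 Dbx1 and 3 non-Dbx1 samples with limma 3.58.1 (R 4.3.3, lmFit and eBayes with trend, two-sided) over genes above 0 in at least 3 samples, with Benjamini-Hochberg adjustment over all genes tested. The study's count test could not be run on RPKM. Reads were recovered as whole multiples of the smallest step of a gene's values. In 10 members the length so found was below the merged exons, and the reads may be a fraction of the true number. Coding words, loci and exon lengths came from GENCODE M21 (GRCm38), the starts from RefSeq (GRCm38.p6); the annotation release may differ from that of the authors. The fit was run on simulated data with changes larger than any L2FC of a member, so that run says nothing about small differences.

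The members, lists and tests were chosen with earlier results of these data known. Named genes were those with groups that do not overlap (8 per direction at most in full), the 8 highest and 8 lowest members, members at 0 in any sample, paralogues and X-linked members, the stalk and the particle of Rpl5 and Rpl11, Rps27a, Rpsa, Rps6, Rps19 and Rpl38, and the 3 most and least variable. Alternatives were the pseudocount, filters, scaling, trend, replicate block and leaving out each sample. Summing members with loci, other word and exon lengths, and the counts without non-Dbx1 replicate 1 were added after seeing the data. A few genes entered every fit and count but are not reported or drawn here.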

Additional observations from a re-analysis of the deposited data

How the results depend on the processing

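No member passed FDR 0.1 by limma, and none was higher in the Dbx1 samples at an unadjusted p under 0.05, in the 15 alternatives run. The count of the 82 members higher in the non-Dbx1 samples at that p was 0 as reported. It was 1 with TPM rescaling (Rpl7l1, against 2.36% of all tested genes) and 2 without the trend (Rpl28 and Rpl7a, against 2.74%). With the replicate number as a block it was 1 (Rpl7l1, against 2.15%). With members summed with their loci, an alternative chosen after seeing the data, it was 2 (Rpl26 and Rpl39, against 2.48%). It was 0 to 1 when each sample was left out in turn, against 1.92 to 2.98%. The replicate numbers do not pair the samples: deviations of same-numbered samples had correlations of -0.11, 0.02 and -0.05 over 17614 genes. The block changed no other call among the members. Over all tested genes, the count at FDR 0.1 by limma was 0 with the block, against 1 as reported. The median L2FC of -0.10 ran from -0.20 (without non-Dbx1 replicate 3) to -0.077 (without non-Dbx1 replicate 1) on leaving out each sample, and no L2FC of the 10 named members turned its sign. Rpl10a was at -0.02 with its loci, and Rps25 could not be tested where RPKM of at least 1 was required in 3 samples. Members higher without overlap in the Dbx1 and non-Dbx1 samples numbered 3 and 8 with TPM rescaling, against 5.81 and 4.67% of all tested genes. They numbered 2 and 8 with size factors, against 5.43 and 5.19%, and 2 and 13 with loci, against 5.36 and 5.22%. Of the 11 reported as higher in the non-Dbx1 samples, 8, 8 and 6 remained in these settings, so with loci the rest of the 13 were other members. Rpl28, Rps20 and Rps25 were among those higher in the non-Dbx1 samples in each of these 3 settings. As a log2 ratio of group mean RPKM, the differences of Rps25 and Rpl28 were -1.47 and -1.24. Without the 3 highest members, the members' share of summed RPKM was 0.392% in the Dbx1 and 0.414% in the non-Dbx1 samples. Rpl22l1 held 24.5% of its pair by reads, and rho of level and unique words fell to 0.326 with loci; the cause was not tested. Depth limits members under about 1 RPKM, several of which rest on fewer than 3 reads in a sample.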
